A study of Mus musculus with 87 samples.

Results

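The 7 genes described here encode the enzymes and cofactors that write, copy and remove methyl groups on DNA: Dnmt1 (ENSMUSG00000004099), Dnmt3a (ENSMUSG00000020661), Dnmt3b (ENSMUSG00000027478), Dnmt3l (ENSMUSG00000000730), Uhrf1 (ENSMUSG00000001228), Tet1 (ENSMUSG00000047146) and Tet2 (ENSMUSG00000040943). They are 7 of 55450 IDs in the RNA count files, taken by Ensembl ID, and were placed relative to the deposited peaks by symbol. All 7 were among the 14650 IDs that passed the filter on low counts. Their lowest count in any of the 24 RNA libraries was 72 reads, for Dnmt3l, so none passed only through a genotype in which it was high.

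The series followed mouse embryonic stem cells that had lost subunits of Polycomb repressive complex 2 (PRC2), the enzyme that methylates histone H3 at lysine 27. The RNA part held 8 genotypes with 3 libraries each: wild type (WT), a knockout of Suz12 (Suz12 KO), 1 of Jarid2 and Aebp2 together (Jarid2 + Aebp2 KO), and 5 that lacked the Pcl genes. The last were the Pcl1-3 KO itself, Pcl1-3 + Epop KO, Pcl1-3 + Jarid2 KO, then Aebp2 lost as well (Pcl1-3 + Jarid2 + Aebp2 KO), and finally Epop lost as well (Pcl1-3 + Jarid2 + Aebp2 + Epop KO). SUZ12 is a core subunit, while JARID2, AEBP2, EPOP and PCL1 to PCL3 (the Polycomb-like proteins) are accessory subunits, so the last genotype, which lacks all 6 of these, is called the 6-gene knockout below. All cells, WT included, were grown on gelatin in 2i medium, which contains inhibitors of the MEK and GSK3 kinases. No clone name, deletion or number of cultures was given for any genotype, so a p-value here covers the spread between libraries of a genotype only, which may be technical. The strain label ran from 129B6F1 in WT to 129B6F8 in the 6-gene knockout, 1 step per genotype. As labelled, strain and genotype cannot be told apart.

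Total counts ran from 10148155 to 28442061 per library, and the highest library belonged to Pcl1-3 KO. No pair of libraries of a genotype agreed within sampling noise, with chi-square per degree of freedom between 6.249 and 67.81. The levels of the knocked-out genes and of cell type markers were not analysed here, because the files and the reference table do not pair the IDs with symbols. Levels are given as CPM (read counts relative to library size, scaled between libraries by TMM, the trimmed mean of M values), which are not divided by gene length, so levels are compared between genotypes and not between genes. In bulk RNA, fewer cells expressing a gene and less RNA per cell cannot be told apart.

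As background, DNMT3A and DNMT3B place methyl groups on unmethylated CG sites, and DNMT3L, which has no catalytic activity of its own, binds and stimulates them. DNMT1, guided by UHRF1 to newly replicated DNA, copies the methylation pattern to the daughter strand. TET1 and TET2 oxidise 5-methylcytosine, which starts its removal. Embryonic stem cells in 2i medium are known for low DNA methylation and for low expression of the de novo enzymes compared with cells in serum.

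SUZ12 and PCL2 peaks of the deposited lists covered 2 of the 3 start sites of Dnmt3a and the single start of Dnmt3b. The start regions of these 2 genes and of Dnmt3l are printed because their RNA varied most with genotype. They come from RefSeq (GRCm38.p6, the assembly of mm10), and each is the 250 bases before a start site, 5′ to 3′ on the plus strand, with every CG in capitals. The Dnmt3a window is chr12:3806730-3806979, that of Dnmt3b chr2:153649199-153649448 and that of Dnmt3l chr10:78042037-78042286.
Dnmt3a: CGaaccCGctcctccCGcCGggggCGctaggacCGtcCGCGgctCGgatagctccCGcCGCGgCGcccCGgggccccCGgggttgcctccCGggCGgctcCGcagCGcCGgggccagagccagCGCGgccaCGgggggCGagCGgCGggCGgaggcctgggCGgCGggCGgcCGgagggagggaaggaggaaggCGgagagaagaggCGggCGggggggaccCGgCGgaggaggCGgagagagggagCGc
Dnmt3b: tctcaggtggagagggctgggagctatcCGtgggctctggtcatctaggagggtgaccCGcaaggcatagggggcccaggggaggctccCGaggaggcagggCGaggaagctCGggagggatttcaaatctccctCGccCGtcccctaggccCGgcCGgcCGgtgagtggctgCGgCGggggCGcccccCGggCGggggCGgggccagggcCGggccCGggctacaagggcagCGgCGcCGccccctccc
Dnmt3l: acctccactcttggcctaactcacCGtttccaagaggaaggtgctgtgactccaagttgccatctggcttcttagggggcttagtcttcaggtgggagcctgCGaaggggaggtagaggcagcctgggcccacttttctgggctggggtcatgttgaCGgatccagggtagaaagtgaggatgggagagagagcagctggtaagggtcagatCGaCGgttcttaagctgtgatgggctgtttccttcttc
These windows hold 38, 21 and 5 CG dinucleotides. CG reads the same on both strands, and among 32851 windows of the same length the median was 6, with 92.1% holding at least 1. At least 38 were found in 1.88% of windows, at least 21 in 16.3% and at least 5 in 55.6%. The window of the single Tet2 start held 51, which 0.067% of windows reached, and no peak lay near it.

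Dnmt3a spans chr12:3801559-3914443 on the plus strand. A SUZ12 peak of 1786 bp (chr12:3806150-3807935) and a PCL2 peak of 1455 bp (chr12:3806196-3807650) each covered its start sites at 3806980 and 3807160, and the third, at 3891744, had none over it. A further PCL2 peak of 1033 bp (chr12:3829163-3830195) lay inside the gene, 22003 bp from the nearest start. Outside the gene, a PCL2 peak of 528 bp lay 9157 bp before it and a PCL2 peak of 403 bp lay 15671 bp past it. Dnmt3b spans chr2:153649411-153687730 on the plus strand. Its start at 153649449 lay under a SUZ12 peak of 1666 bp (chr2:153648843-153650508) and a PCL2 peak of 1494 bp (chr2:153649009-153650502). A PCL2 peak of 420 bp lay 16335 bp before the gene.

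Dnmt3l, at chr10:78042287-78063622 on the plus strand, had no peak over any of its 3 start sites. A PCL2 peak of 441 bp (chr10:78043334-78043774) lay inside the gene, 1047 bp past its first start. On either side, a SUZ12 peak of 535 bp and a PCL2 peak of 960 bp lay 7308 and 7182 bp before the gene. SUZ12, JARID2 and PCL2 peaks of 1607, 333 and 1080 bp lay 4801, 5397 and 5236 bp past its end. Uhrf1 (chr17:56303337-56323486, plus strand) had 1 PCL2 peak of 353 bp, 2638 bp outside the gene. No peak of the 3 lists lay within 20 kb of Dnmt1 (chr9:20907206-20959888, minus strand), Tet1 (chr10:62804570-62887469, minus strand) or Tet2 (chr3:133463677-133545136, minus strand).

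**Figure D1:**
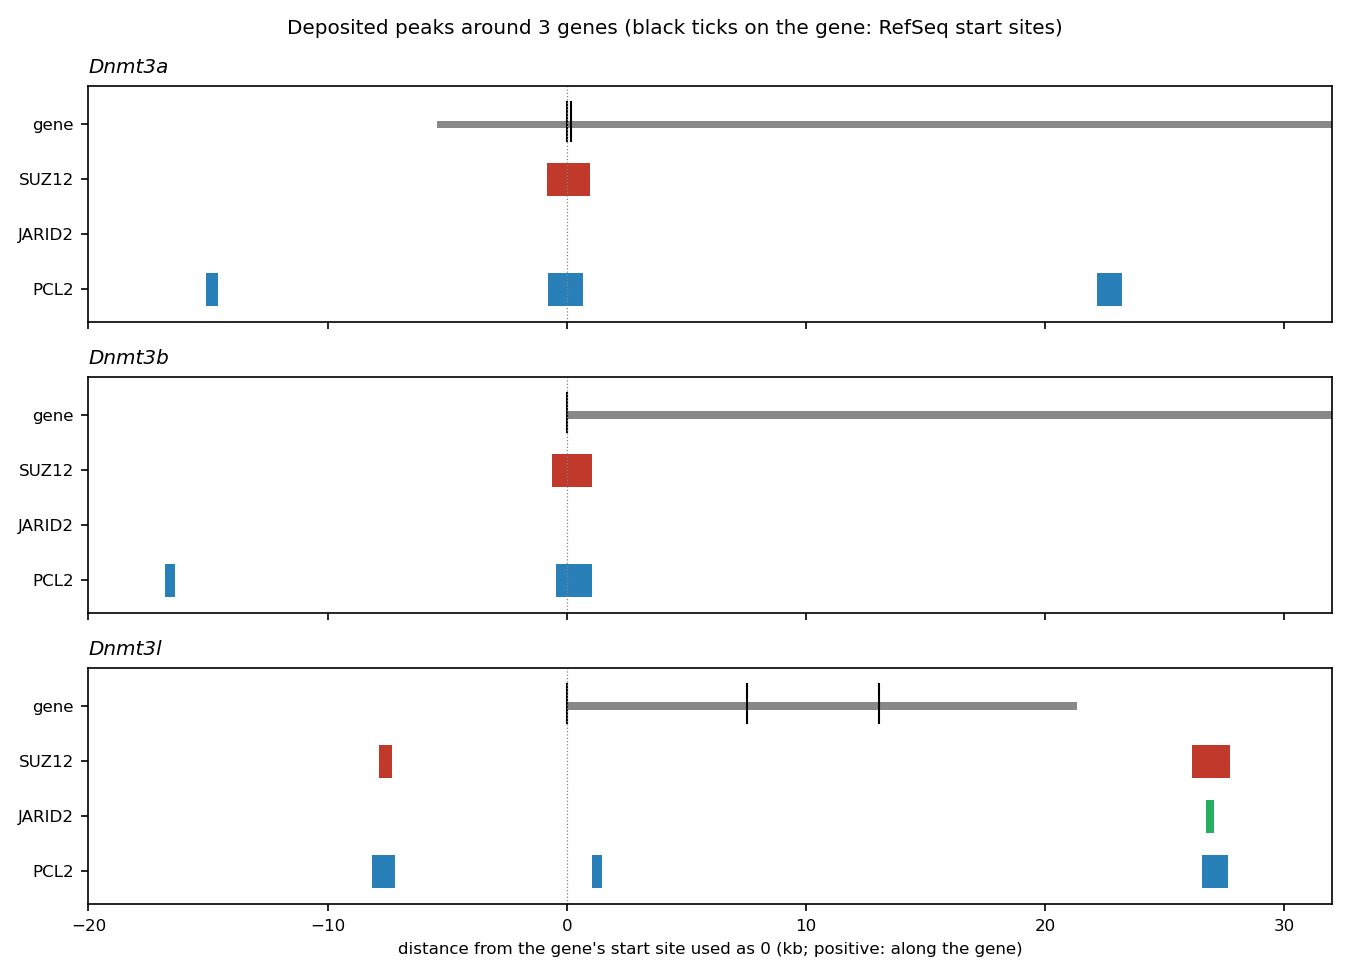
Position of SUZ12, JARID2 and PCL2 peaks around Dnmt3a, Dnmt3b and Dnmt3l, as distance in kb from a RefSeq start site (black ticks mark the start sites on the grey gene). SUZ12 and PCL2 peaks cover the 0 point of Dnmt3a and Dnmt3b, while those of Dnmt3l flank the gene, apart from 1 PCL2 peak of 441 bp.

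Counted within 1 kb of the gene, 2 of 7 genes had a SUZ12 peak, against 24.2% of 21887 protein-coding genes. None of the 7 had a JARID2 peak (14.3% of protein-coding genes), and 3 had a PCL2 peak (42.0%). The lists carry no scores or replicates, the cells they come from are not named in the list, and whether a peak falls in an exon was not analysed here. When a peak had to lie within 1 kb of either end of the gene, Dnmt3b alone counted, 1 of 7 for SUZ12 and 1 for PCL2. Dnmt3a dropped out since its start sites under peaks lie inside the gene as annotated. Dnmt3l dropped out for PCL2 since its peak begins 1047 bp inside the gene. The share of protein-coding genes by this rule was not computed.

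Against WT, Dnmt3b and Dnmt3l rose and Dnmt1 and Uhrf1 fell in both Suz12 KO and the 6-gene knockout, and Dnmt3a fell in 4 genotypes that lacked Pcl1-3. Counted over the comparisons with WT, which share its 3 libraries, 5 of 7 genes passed in Suz12 KO, where 39.1% of all IDs tested did. In the 6-gene knockout 4 of 7 passed, against 32.9% of IDs. The counts were 1 of 7 in Pcl1-3 KO (8.70% of IDs), 1 in Pcl1-3 + Epop KO (7.61%), 1 in Pcl1-3 + Jarid2 KO (17.2%) and 2 in Pcl1-3 + Jarid2 + Aebp2 KO (15.0%). None passed in Jarid2 + Aebp2 KO in the main edgeR fit (4.39% of IDs) or by DESeq2, though some alternative edgeR fits gave calls there. In the main fit 2 had an unadjusted p under 0.05, and the share of all IDs with such a p was not computed. Between the 6-gene knockout and Suz12 KO 2 of 7 passed, Dnmt3l and Tet2, where 43.0% of IDs did.

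Dnmt3l spanned the widest range of the 7 genes, with the highest genotype mean 45.9 times the lowest. Its levels in WT replicates 1, 2 and 3 were 17.7, 12.8 and 22.4 CPM. In Suz12 KO they were 143, 124 and 133 CPM, and in the 6-gene knockout 292, 328 and 341 CPM. Every library of these 2 knockouts lay above every other library of the series, and the 2 did not overlap each other. The mean rose 7.50-fold in Suz12 KO against WT (log2 fold change 2.91 ± 0.43 SE, edgeR adjusted p = 2.1e-05) and 18.0-fold in the 6-gene knockout (4.17 ± 0.45, edgeR adjusted p = 5.83e-07). The 6-gene knockout was also above Suz12 KO itself, by 1.27 ± 0.39 on the log2 scale (edgeR adjusted p = 0.0123).

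In the other genotypes Dnmt3l did not rise above WT by the test. Pcl1-3 KO had 6.38, 11.7 and 2.83 CPM and Jarid2 + Aebp2 KO had 7.88, 8.05 and 6.03 CPM, all below the lowest WT library. Pcl1-3 + Epop KO spread from 6.45 to 29.6 CPM, Pcl1-3 + Jarid2 KO from 14.8 to 31.7 and Pcl1-3 + Jarid2 + Aebp2 KO from 12.3 to 21.5, all 3 overlapping WT. Neither low genotype passed the test against WT, at log2 fold changes of -1.41 (95% interval -2.35 to -0.46, edgeR adjusted p = 0.0579) and -1.27 (-2.21 to -0.34, edgeR adjusted p = 0.109). Without Pcl1-3 KO replicate 2, the value in Pcl1-3 KO was -2.05 with edgeR adjusted p = 0.0156. No other left-out library gave a call there, while DESeq2 and the fit without the filter did. Over the 12 alternatives the value ran from -2.05 to -0.95.

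Dnmt3b followed the same order at the top. WT replicates had 106, 65.3 and 82.8 CPM, Suz12 KO had 227, 193 and 130 CPM, and the 6-gene knockout had 224, 228 and 196 CPM. Both knockouts lay above all WT libraries and overlapped each other, and they differed by 0.24 on the log2 scale (95% interval -0.48 to 0.96). Against WT the level rose 2.16-fold in Suz12 KO (log2 fold change 1.11 ± 0.35 SE, edgeR adjusted p = 0.0164) and 2.55-fold in the 6-gene knockout (1.35 ± 0.35, edgeR adjusted p = 0.00596). The Suz12 KO call was lost without Suz12 KO replicate 1 (edgeR adjusted p = 0.07) or WT replicate 2 (0.0771).

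Lower Dnmt3b levels than WT were seen in 3 genotypes. Pcl1-3 KO had 41.7, 71.7 and 29.6 CPM, Pcl1-3 + Epop KO 59.8, 56.2 and 17.2 CPM, and Jarid2 + Aebp2 KO 50.4, 53.1 and 30.3 CPM. Only the first overlapped WT, yet none of the 3 passed in the main fit. Their log2 fold changes were -0.84, -0.93 and -0.92, with edgeR adjusted p of 0.15, 0.116 and 0.141. All 3 passed with a block for the replicate number (edgeR adjusted p = 0.0235, 0.0122 and 0.0188). They also passed without the filter on low counts, a fit whose standard errors for Dnmt3b are much smaller. In Suz12 KO against WT its SE was 0.14, against 0.35 in the main fit, so calls without the filter are not comparable in strength. Without Pcl1-3 KO replicate 2, the value in Pcl1-3 KO was -1.26 (edgeR adjusted p = 0.0468). No other left-out library gave a call there, and over the 12 alternatives the value ran from -1.26 to -0.57. Pcl1-3 + Jarid2 KO (68.8 to 88.3 CPM) and Pcl1-3 + Jarid2 + Aebp2 KO (68.3 to 114 CPM) overlapped WT.

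Dnmt3a, the other de novo enzyme, separated the genotypes differently. Its WT libraries had 27.5, 22.2 and 20.7 CPM. In Pcl1-3 KO they had 17.1, 13.0 and 13.0 CPM, in Pcl1-3 + Epop KO 19.5, 11.5 and 11.0 CPM, in Pcl1-3 + Jarid2 KO 8.92, 9.47 and 10.9 CPM, and in Pcl1-3 + Jarid2 + Aebp2 KO 11.8, 10.7 and 9.30 CPM. All 12 of these libraries lay below the lowest WT library, and Dnmt3a fell in all 4 genotypes: by 0.71 on the log2 scale in Pcl1-3 KO (SE 0.18, edgeR adjusted p = 0.0158), by 0.74 in Pcl1-3 + Epop KO (0.0139), by 1.26 in Pcl1-3 + Jarid2 KO (7.35e-05) and by 1.15 in Pcl1-3 + Jarid2 + Aebp2 KO (0.000164). The first call was lost without WT replicate 1 (edgeR adjusted p = 0.12) or Pcl1-3 KO replicate 3 (0.0983). The call in Pcl1-3 + Epop KO was lost without WT replicate 1 (0.103), without its own replicate 2 (0.0718) or 3 (0.0946), and in a fit to the 2 genotypes alone (0.193).

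The genotypes with intact Pcl1-3 genes, and the 6-gene knockout, did not show this fall. Jarid2 + Aebp2 KO had 26.1, 21.2 and 20.9 CPM, which overlapped WT at a log2 fold change of -0.04 (95% interval -0.41 to 0.32). Suz12 KO (30.5, 28.6 and 27.5 CPM) and the 6-gene knockout (30.3, 31.5 and 29.8 CPM) had all their libraries above the WT ones. Their log2 fold changes of 0.30 (edgeR adjusted p = 0.181) and 0.38 (edgeR adjusted p = 0.103) did not pass. Dnmt3a counts were low, from 112 to 477 reads per library.

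**Figure D2:**
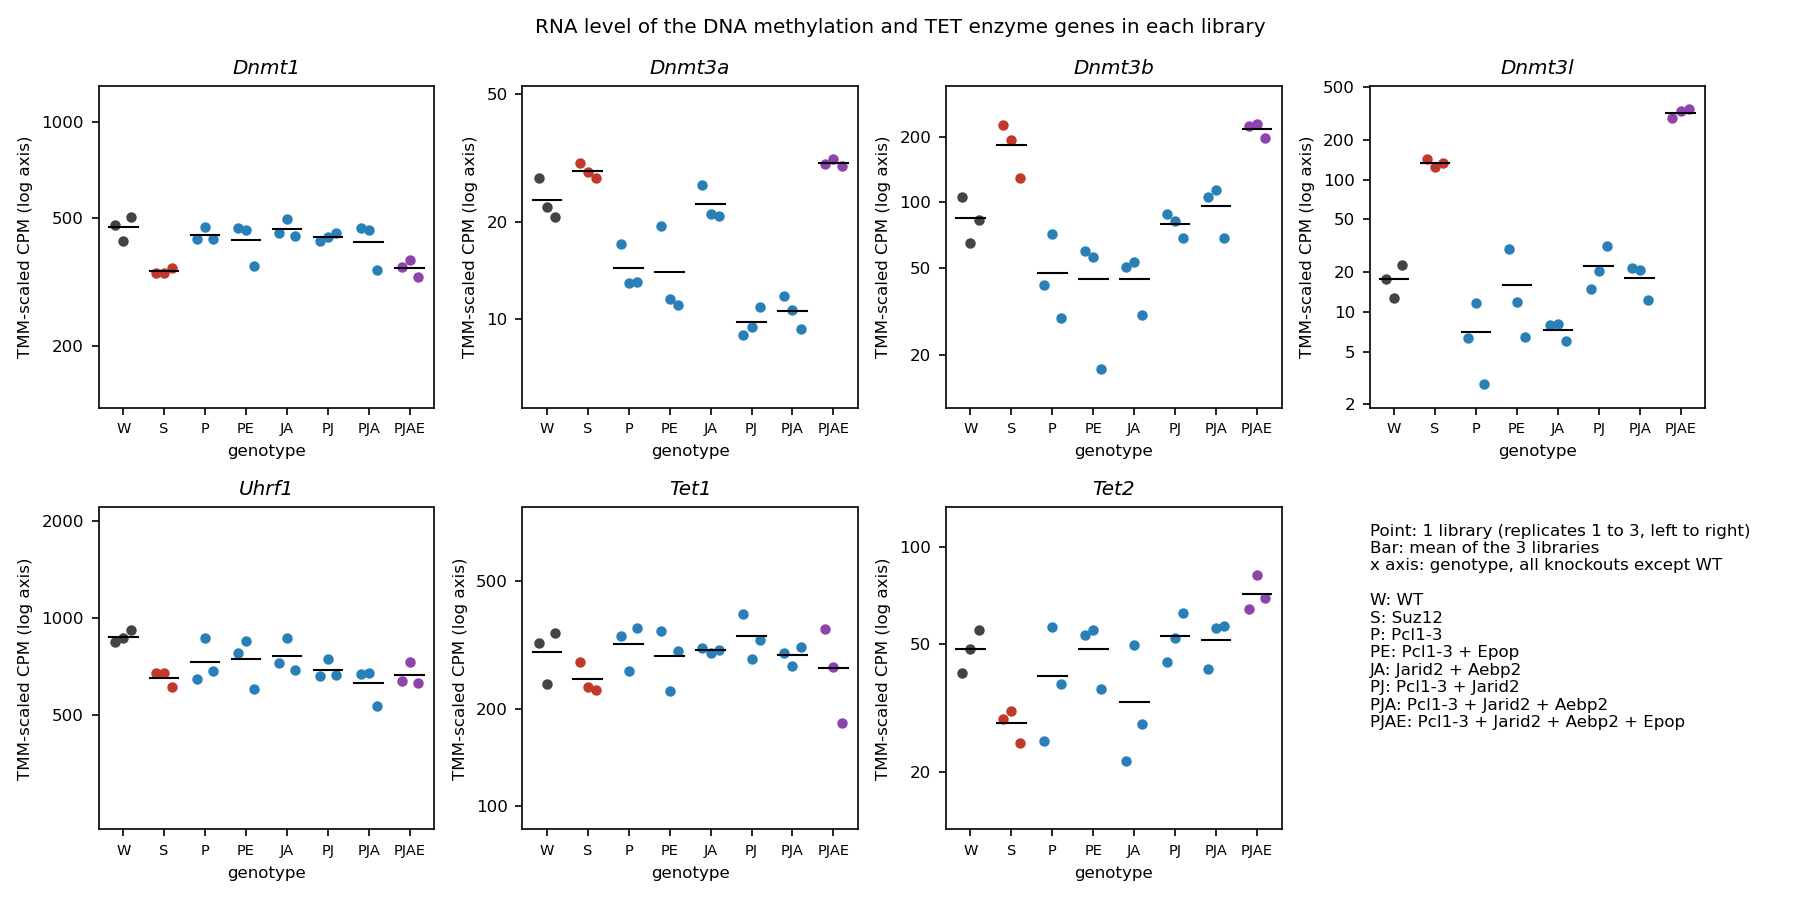
TMM-scaled CPM of the 7 genes in each of 24 libraries on log axes (each axis spans at least 10-fold), points being libraries and bars the mean of 3. Dnmt3l and Dnmt3b are highest in Suz12 KO and the 6-gene knockout, and Dnmt3a is lowest in the 4 genotypes without Pcl1-3 that keep Epop, Jarid2 or Aebp2.

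The maintenance pair, Dnmt1 and Uhrf1, moved over a narrower range, with the highest genotype mean 1.37 and 1.40 times the lowest. Dnmt1 had 476, 426 and 505 CPM in WT, 338, 337 and 350 CPM in Suz12 KO, and 353, 372 and 329 CPM in the 6-gene knockout. Both knockouts lay below every WT library and overlapped each other. Dnmt1 fell by 0.46 on the log2 scale in Suz12 KO (SE 0.11, edgeR adjusted p = 0.00305) and by 0.42 in the 6-gene knockout (SE 0.11, edgeR adjusted p = 0.00744). In the 5 other knockouts the mean was between 423 and 462 CPM, every one overlapped WT, and none passed.

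Uhrf1 was highest in WT, at 843, 867 and 918 CPM. Suz12 KO had 675, 678 and 610 CPM, Pcl1-3 + Jarid2 + Aebp2 KO 673, 677 and 532 CPM, and the 6-gene knockout 638, 730 and 630 CPM. None of these 9 libraries reached the lowest WT library. Uhrf1 fell by 0.42, 0.48 and 0.40 on the log2 scale (SE 0.13 each), with edgeR adjusted p of 0.0155, 0.0163 and 0.0262. The other 4 knockouts had means from 692 to 761 CPM and did not pass.

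Without single libraries the Uhrf1 log2 fold changes stayed between -0.46 and -0.38 in Suz12 KO, -0.54 and -0.37 in Pcl1-3 + Jarid2 + Aebp2 KO, and -0.48 and -0.36 in the 6-gene knockout, but the calls did not all hold. The call in Suz12 KO was lost without WT replicate 3 (edgeR adjusted p = 0.0608) or its own replicate 3 (0.0588), and with library sizes alone as the scaling (log2 fold change -0.29, edgeR adjusted p = 0.0802), under which the median of all IDs tested stood at 0.11. That in Pcl1-3 + Jarid2 + Aebp2 KO was lost without WT replicate 3 (0.0575) or its own replicate 3 (0.111). That in the 6-gene knockout was lost without WT replicate 2 (0.0536) or 3 (0.083) or its own replicate 1 (0.0624) or 3 (0.0912).

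Tet1 did not pass in any of the 15 comparisons made. Its WT libraries had 321, 239 and 345 CPM, and the knockout means ran from 247 CPM in Suz12 KO to 336 CPM in Pcl1-3 + Jarid2 KO, all overlapping WT. The widest spread was in the 6-gene knockout, at 354, 269 and 181 CPM. Against WT the log2 fold change was -0.29 in Suz12 KO (95% interval -0.69 to 0.12) and -0.17 in the 6-gene knockout (-0.58 to 0.24).

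Tet2 was low in Suz12 KO and high in the 6-gene knockout. WT had 40.7, 48.2 and 55.4 CPM, Suz12 KO 29.3, 31.0 and 24.6 CPM, and the 6-gene knockout 64.1, 81.7 and 69.3 CPM. The 3 groups did not overlap, with Suz12 KO below WT and the 6-gene knockout above it. Tet2 fell by 0.77 on the log2 scale in Suz12 KO against WT (SE 0.27, edgeR adjusted p = 0.0284). The 6-gene knockout was above Suz12 KO by 1.34 ± 0.27, or 2.54-fold (edgeR adjusted p = 0.000422), while its difference from WT of 0.57 did not pass (edgeR adjusted p = 0.104).

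The fall of Tet2 in Suz12 KO was lost without Suz12 KO replicate 1 (edgeR adjusted p = 0.059) or 3 (0.0978), without WT replicate 2 (0.0573) or 3 (0.109), and with library sizes alone (log2 fold change -0.64, edgeR adjusted p = 0.0678). In the other genotypes Tet2 varied between libraries. Pcl1-3 KO had 24.9, 56.4 and 37.5 CPM and Jarid2 + Aebp2 KO had 21.6, 49.5 and 28.2 CPM, so that replicate 2 was the highest of each. Without its replicate 2, Jarid2 + Aebp2 KO was -0.96 on the log2 scale against WT (edgeR adjusted p = 0.0409), where all 3 gave -0.54 (edgeR adjusted p = 0.255). No other left-out library gave a call there, while the fit without the filter did. Over the 12 alternatives the value ran from -0.96 to -0.31.

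**Figure D3:**
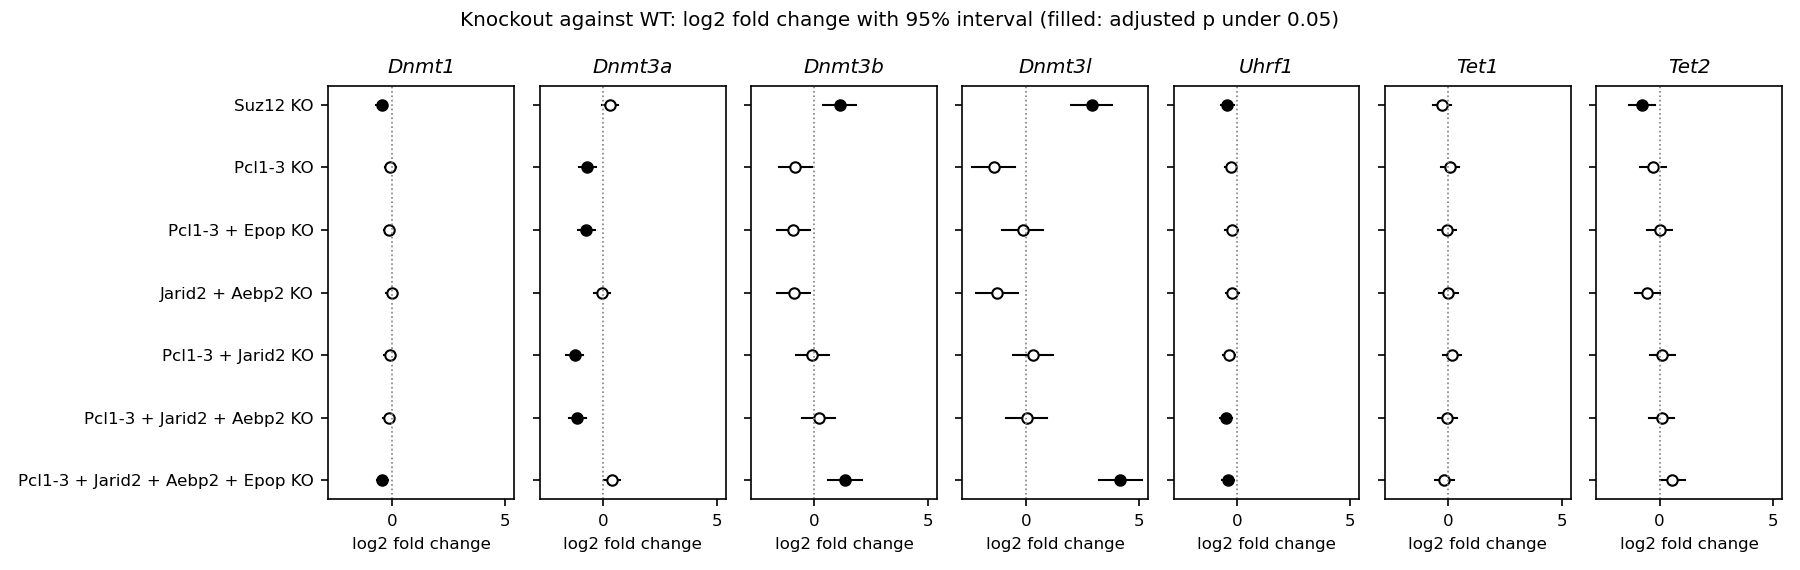
Log2 fold change of each gene against WT in the 7 knockouts, with 95% intervals, filled where the edgeR adjusted p was under 0.05. Dnmt3l reaches 2.91 and 4.17 in Suz12 KO and the 6-gene knockout, Dnmt3a is below 0 in the 4 genotypes where it fell, and Tet1 has no filled point.

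The order of genotypes by mean shows which levels were set apart. For Dnmt3a the 8 genotypes formed 3 steps: the 6-gene knockout and Suz12 KO, then WT and Jarid2 + Aebp2 KO, then the 4 others. Libraries did not overlap between the last genotype of a step and the first of the next, whereas neighbours within a step did overlap. The first of these gaps was narrow, from 27.49 CPM in the lowest Suz12 KO library to 27.47 CPM in the highest WT library. Dnmt3b had 1 such gap, below Suz12 KO, and Dnmt3l had 2, below the 6-gene knockout and below Suz12 KO. Tet2 had 1, below the 6-gene knockout. Dnmt1, Uhrf1 and Tet1 had none between neighbours. How often such gaps occur among all IDs tested was not analysed here, so they only describe the levels of these genes.

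Loss of 1 further subunit was compared in 4 steps. Adding Epop loss to Pcl1-3 KO moved none of the 7 genes past the threshold in the main edgeR fit or by DESeq2. In that edgeR fit 0.00683% of all IDs passed. Dnmt3l had an unadjusted p of 0.0111 there, with a log2 fold change of 1.26 (95% interval 0.32 to 2.20). Adding Jarid2 loss to Pcl1-3 KO moved 1 of 7 (6.27% of IDs): Dnmt3l rose by 1.74 ± 0.45, from 6.38, 11.7 and 2.83 CPM to 14.8, 20.4 and 31.7 CPM (edgeR adjusted p = 0.0213). That call was lost without Pcl1-3 KO replicate 1 (0.0963) or 3 (0.137), without Pcl1-3 + Jarid2 KO replicate 3 (0.156), and in a fit to the 2 genotypes alone (0.0965). In the same step Dnmt3a was lower by 0.55 on the log2 scale with edgeR adjusted p = 0.0821, and fell by 0.53 with a block for the replicate number (edgeR adjusted p = 0.0173).

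Adding Aebp2 loss to Pcl1-3 + Jarid2 KO gave no call among the 7 by edgeR or DESeq2, and none had an unadjusted p under 0.05 (0.901% of IDs passed by edgeR). The largest of these differences in size was -0.30 for Dnmt3l (95% interval -1.17 to 0.57). The last step, Epop loss from Pcl1-3 + Jarid2 + Aebp2 KO, raised the 3 genes of the de novo group, 3 of 7 against 11.2% of IDs. Dnmt3l went from 21.5, 20.6 and 12.3 CPM to 292, 328 and 341 CPM (17.6-fold, log2 fold change 4.14 ± 0.45 SE, edgeR adjusted p = 2.78e-06). Dnmt3a went from 11.8, 10.7 and 9.30 CPM to 30.3, 31.5 and 29.8 CPM (2.88-fold, 1.53 ± 0.18, edgeR adjusted p = 9.02e-06). For neither gene did the groups overlap.

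Dnmt3b went from 106, 114 and 68.3 CPM to 224, 228 and 196 CPM in that step (2.25-fold, log2 fold change 1.17 ± 0.35 SE, edgeR adjusted p = 0.0349). The libraries did not overlap, but the call was lost when any 1 of the 6 libraries was left out: with replicate 1, 2 or 3 of Pcl1-3 + Jarid2 + Aebp2 KO out the edgeR adjusted p was 0.0822, 0.0577 or 0.146, and with replicate 1, 2 or 3 of the 6-gene knockout out 0.0682, 0.086 or 0.0658. Without replicate 3 of Pcl1-3 + Jarid2 + Aebp2 KO, Dnmt1 fell by 0.40 on the log2 scale (edgeR adjusted p = 0.0232), where all libraries gave -0.27 (edgeR adjusted p = 0.138). No other alternative gave a call for Dnmt1 in that step. Uhrf1, Tet1 and Tet2 had differences of 0.09, -0.13 and 0.48 and did not pass.

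The change that went with Epop loss was compared with and without Jarid2 and Aebp2. The test took the difference between the last step and the step from Pcl1-3 KO to Pcl1-3 + Epop KO. It passed for 2 of 7 genes, against 2.09% of IDs. The difference was 1.55 ± 0.26 for Dnmt3a (edgeR adjusted p = 0.00141), whose change was -0.03 with both genes intact and 1.53 with both lost. For Dnmt3l it was 2.88 ± 0.61 (edgeR adjusted p = 0.014), from 1.26 to 4.14. The Dnmt3l call was lost without Pcl1-3 KO replicate 2 (2.22, edgeR adjusted p = 0.0884) and in a fit to the 4 genotypes alone (2.91, 0.109). For Dnmt3b the difference of 1.26 had an edgeR adjusted p of 0.25, and with a block for the replicate number it was 1.35 (edgeR adjusted p = 0.0383).

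**Figure D4:**
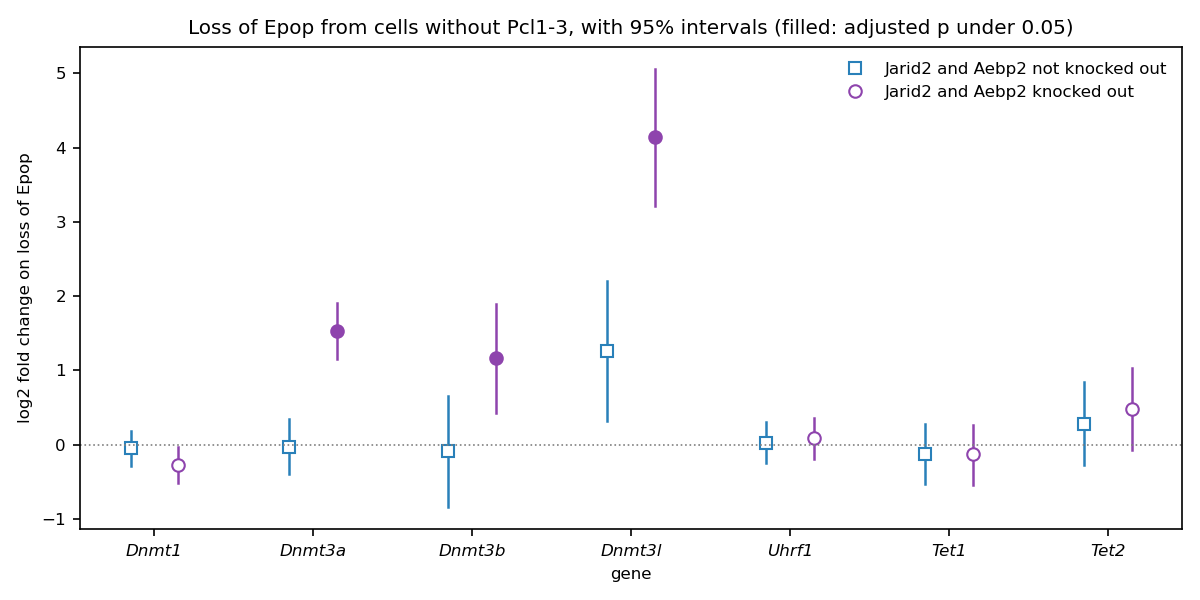
Log2 fold change on loss of Epop from cells without Pcl1-3, with 95% intervals, for cells with Jarid2 and Aebp2 intact (squares) and knocked out (circles), filled where the edgeR adjusted p was under 0.05. Dnmt3a, Dnmt3b and Dnmt3l have filled circles at 1.53, 1.17 and 4.14, and no square is filled.

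Loss of Pcl1-3 was also compared in cells that lacked Jarid2 and Aebp2. From Jarid2 + Aebp2 KO to Pcl1-3 + Jarid2 + Aebp2 KO, 2 of 7 genes passed, against 13.7% of IDs, and they moved in opposite directions. Dnmt3a fell from 26.1, 21.2 and 20.9 CPM to 11.8, 10.7 and 9.30 CPM, by 1.10 on the log2 scale (SE 0.18, edgeR adjusted p = 0.000255). Dnmt3b rose from 50.4, 53.1 and 30.3 CPM to 106, 114 and 68.3 CPM, by 1.11 ± 0.36 (edgeR adjusted p = 0.0434). The Dnmt3b groups did not overlap, but its call was lost without replicate 1, 2 or 3 of Jarid2 + Aebp2 KO (edgeR adjusted p = 0.0846, 0.0607 and 0.205) and without replicate 1 or 2 of Pcl1-3 + Jarid2 + Aebp2 KO (0.116 and 0.14).

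In the same comparison Uhrf1 and Tet2 did not pass, but did with a block for the replicate number. Uhrf1 was -0.28 (edgeR adjusted p = 0.181 without the block and 0.0446 with it). Tet2 was 0.63 (edgeR adjusted p = 0.126), or 0.67 with the block (edgeR adjusted p = 0.0307). Leaving out Jarid2 + Aebp2 KO replicate 2 gave 1.06 for Tet2 (edgeR adjusted p = 0.0121), and no other left-out library gave a call for it. Dnmt3l was 1.31, with edgeR adjusted p = 0.0554.

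Additivity asked whether the joint loss of Pcl1-3, Jarid2 and Aebp2 equalled the sum of the separate losses on the log2 scale. It departed from the sum for 2 of 7 genes, against 7.36% of IDs. Dnmt3l had log2 fold changes against WT of -1.41 in Pcl1-3 KO, -1.27 in Jarid2 + Aebp2 KO and 0.04 in the joint knockout, a departure of 2.71 ± 0.64 (edgeR adjusted p = 0.0138). The corresponding values for Dnmt3b were -0.84, -0.92 and 0.18, a departure of 1.94 ± 0.50 (edgeR adjusted p = 0.0241). For both genes the joint knockout overlapped WT while the separate ones had lower means. For Dnmt3a, whose values were -0.71, -0.04 and -1.15, the departure of -0.39 did not pass (95% interval -0.92 to 0.14).

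The Dnmt3b departure was lost without WT replicate 1 (edgeR adjusted p = 0.0772), Pcl1-3 KO replicate 1 (0.0685) or 3 (0.0892), Jarid2 + Aebp2 KO replicate 3 (0.0863), or Pcl1-3 + Jarid2 + Aebp2 KO replicate 1 (0.0592) or 2 (0.0625). Tet2 had a departure of 0.91 (edgeR adjusted p = 0.144). Without Pcl1-3 KO replicate 2 it was 1.25 (0.0344), and without Jarid2 + Aebp2 KO replicate 2 it was 1.33 (0.0224). No other left-out library gave a call for Tet2 there.

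Other genes of the DNA methylation pathway were available by position only. Of 31 such genes, 7 had a SUZ12 peak within 1 kb, 4 a JARID2 peak and 11 a PCL2 peak, and 20 had none. By these counts 22.6% had SUZ12, 12.9% JARID2 and 35.5% PCL2, beside 24.2%, 14.3% and 42.0% of protein-coding genes. All 3 proteins had peaks near 4 genes. The share of protein-coding genes with all 3, or with none, was not computed, so neither count is read as particular to the pathway. The 4 included Tet3, the third TET enzyme, and Uhrf2, a relative of Uhrf1. The others were Gadd45g, linked to DNA repair and demethylation, and Cxxc4, a CXXC-domain protein that binds TET2. Among the 8 methyl-CpG readers none had a SUZ12 or JARID2 peak, and Zbtb33 and Zbtb38 had a PCL2 peak. Of 8 genes for oxidation and removal of methylated bases, 3 had a SUZ12 peak: Tet3, Smug1 and Gadd45g. Of 5 maintenance cofactors Uhrf2 alone had one, and of the 4 genes that protect methylation marks Zfp445 and Dppa3 did.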

How the data were processed

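RNA counts and peak positions were used as deposited. For RNA, the deposited values are whole read counts for each Ensembl ID, and STAR, HTSeq and mm10 are named in the submitters' processing notes without versions. No source used here gives the strand setting, which leaves reads of antisense or overlapping genes uncertain. Peak lists deposited by the authors hold other values, namely start and end positions in base pairs, with no score. Trimmomatic, Bowtie2 and mm10 are named for them in the submitters' processing notes, without a peak caller or any word on pooling.

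The analysis used edgeR 4.0.16 under R 4.3.3, with filterByExpr defaults (14650 IDs kept), TMM scaling, 1 mean per genotype over 24 libraries, robust quasi-likelihood tests, and Benjamini-Hochberg adjustment over all IDs with a threshold of 0.05 and no fold threshold. The script was tested on simulated data. Of the 15 comparisons, 7 were with WT, 6 between knockouts and 2 tested a difference of differences. Fold changes carry the standard error (SE) and 95% interval of that fit. Depth was 10148155 to 28442061 counts per library, and its effect on precision was not tested.

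The named genes are the 7 members and, by peaks only, 31 pathway genes (1 more of the list is not reported here); these members and lists were chosen with earlier results of these data known. Alternatives were other scalings (DESeq2 size factors, written RLE in edgeR, and library sizes alone), no filter, DESeq2 1.42.0, the genotypes compared alone, each library left out, and a replicate block. Without the filter some standard errors were far smaller than in the main fit (0.14 against 0.35 for Dnmt3b in Suz12 KO against WT). Calls that rest on that fit are weak evidence. Numbers in the labels link libraries across genotypes: deviations from the genotype mean correlated with a median r of 0.26 over 84 pairs with the same number. The median of -0.131 over 168 pairs with different numbers is not separate evidence, since deviations cancel within a genotype. The main fit ignored this link in all 15 comparisons, so its intervals and calls are unpaired. A comparison was labelled paired where every same-number r exceeded 0.1, which held for 8 of 15. For these, pairing entered only through the replicate block, given beside a result where it changed the call. Gene positions and start windows came from RefSeq GRCm38.p6 by symbol, with all 7 members and all 31 other genes matched; a peak counted within 1 kb of the gene.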

Additional observations from a re-analysis of the deposited data

Results flagged for a closer look

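The change that went with one loss differed with the background in 4 cases, each by a test of the difference itself. As labelled, strain and genotype cannot be told apart, so loss and cell line are not separated in these tests. Epop loss from cells without Pcl1-3 changed Dnmt3a by -0.03 on the log2 scale with Jarid2 and Aebp2 intact and by 1.53 with both lost, a difference of 1.55 ± 0.26 SE (edgeR adjusted p = 0.00141). The same test gave 2.88 ± 0.61 for Dnmt3l (edgeR adjusted p = 0.014), from 1.26, which did not pass by itself, to 4.14. For Pcl1-3 loss, the Dnmt3l log2 fold change was -1.41 in WT cells and 1.31 in cells without Jarid2 and Aebp2. Neither passed by itself (edgeR adjusted p = 0.0579 and 0.0554), while their difference of 2.71 ± 0.64 did (edgeR adjusted p = 0.0138). The Dnmt3b values for the same loss were -0.84, which did not pass (edgeR adjusted p = 0.15), and 1.11 (edgeR adjusted p = 0.0434). Their difference was 1.94 ± 0.50 (edgeR adjusted p = 0.0241). Of these 4, Dnmt3a in the Epop test and Dnmt3l in the Pcl1-3 test passed under all 18 alternatives run for each. Dnmt3l in the Epop test passed under 16 of 18, and Dnmt3b under 12 of 18.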

How the results depend on the processing

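No called value changed sign under any alternative run. The number of the 7 genes past the threshold changed as follows, and the cause was not tested. For no alternative, left-out libraries included, was the share of all IDs past the threshold computed. These counts therefore have no background beside them. Against WT, Suz12 KO (5) gave 3 with library sizes alone. Pcl1-3 KO (1) gave 2 with DESeq2, 3 without the filter and 2 with the replicate block. Pcl1-3 + Epop KO (1) gave 2 without the filter, 0 with the genotypes compared alone and 2 with the block. Jarid2 + Aebp2 KO (0) gave 3, 1 and 1 under the same 3 settings. Pcl1-3 + Jarid2 KO (1) gave 2 with the genotypes alone and 2 with the block. The 6-gene knockout (4) gave 5 without the filter, 5 with the genotypes alone and 6 with the block. Against Pcl1-3 KO, Pcl1-3 + Epop KO (0) gave 1 without the filter, and Pcl1-3 + Jarid2 KO (1) gave 2 without the filter, 0 with the genotypes alone and 2 with the block. Pcl1-3 + Jarid2 + Aebp2 KO against Jarid2 + Aebp2 KO (2) gave 4 without the filter, 4 with the block, 3 with DESeq2 and 3 with the genotypes alone. Epop loss from Pcl1-3 + Jarid2 + Aebp2 KO (3) gave 4 without the filter. Additivity (2) gave 3 without the filter and 3 with the block. The difference in Epop loss (2) gave 3 without the filter, 3 with the block and 1 with the genotypes alone.

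Leaving out single libraries gave 3 to 5 in Suz12 KO, 0 to 3 in Pcl1-3 KO, 0 to 1 in Pcl1-3 + Epop KO, 0 to 1 in Jarid2 + Aebp2 KO and 1 to 2 in Pcl1-3 + Jarid2 + Aebp2 KO against WT. It gave 0 to 1 for Pcl1-3 + Jarid2 KO against Pcl1-3 KO, 1 to 2 for Pcl1-3 + Jarid2 + Aebp2 KO against Jarid2 + Aebp2 KO, 1 to 3 for additivity and 1 to 2 for the difference in Epop loss. It gave 3 to 4 for the 6-gene knockout against WT and 2 to 3 for Epop loss from Pcl1-3 + Jarid2 + Aebp2 KO. Peaks within 1 kb of either end gave 1 gene for SUZ12 (2) and 1 for PCL2 (3).

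Of the comparisons labelled paired, the block changed no call other than those given above beside the results. In the others at least 1 same-number r was 0.1 or lower, and the block added Dnmt3b in Pcl1-3 KO (edgeR adjusted p = 0.0235), Pcl1-3 + Epop KO (0.0122) and Jarid2 + Aebp2 KO (0.0188), Uhrf1 in Pcl1-3 + Jarid2 KO (0.0107), and Dnmt3a (0.0246) and Tet2 (0.0394) in the 6-gene knockout, all against WT, and Tet2 for additivity (0.0302). With 3 libraries a genotype, intervals stayed wide for some genes. In Suz12 KO against WT the SE was 0.43 for Dnmt3l and 0.35 for Dnmt3b. It was 0.18 for Dnmt3a, which had 112 to 477 reads. Between the 6-gene knockout and Suz12 KO, the median log2 fold change of all IDs stood at -0.131 with library sizes alone and at 0.022 with TMM.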
